A study of Mus musculus with 2 samples.

Results

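The genes described here encode the proteins of the cytosolic ribosome. They were taken as every gene spot whose name is Rpl or Rps with a number, or Rplp0, Rplp1, Rplp2 or Rpsa, with the S6 kinase genes left out and every probe kept. This gave 75 genes of the 29924 gene names on the array, and 181 of its 39429 gene probes. The large subunit accounts for 42 genes, its stalk for 3 and the small subunit for 30.

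Mutant RNA came from ureters of Fgfr1/2cDKO embryos, which carried 1 Cre allele at Tbx18 (Tbx18 cre/+) and floxed alleles on both copies of Fgfr1 (fl/fl) and of Fgfr2 (fl/fl). Control RNA came from ureters of embryos listed with floxed alleles of Fgfr1 (fl/?) and Fgfr2 (fl/?), the second allele being unstated, and with no Cre allele named. All were NMRI mice. Ureters were taken at E15.5 and grown for 6 days on transwell membranes, and 150 ng of total RNA was labelled per sample. Tbx18 marks the mesenchyme around the ureteric epithelium, so that Cre from this locus removes floxed alleles there and in descendant cells; epithelium of the same ureter keeps them. Loss of the receptors and the Cre insertion itself cannot be told apart. The RNAs were set against each other on 2 two-colour arrays. Array 1, labelled male, held mutant RNA in Cy5 and control RNA in Cy3, and array 2, labelled female, held mutant RNA in Cy3 and control RNA in Cy5. Replicate, sex label and dye orientation cannot be told apart. The labels do not say whether the RNA samples came from separate litters or pools, so the p-values speak only of how these samples scattered, and that scatter may be technical.

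Ribosomal proteins assemble with ribosomal RNA in the nucleolus into a small subunit, which decodes the messenger RNA, and a large subunit, which joins amino acids. They are needed in fixed proportions, and surplus copies are degraded. Their messenger RNAs are among the most abundant in growing cells and begin with a run of pyrimidines, the 5′ terminal oligopyrimidine (TOP) tract, through which nutrient and growth factor signals reach their translation by way of mTORC1 and Larp1. Transcript levels, measured here, do not report that step.

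The TOP tract is a sequence feature that the choice of genes did not use. In RefSeq's promoter table (GRCm38.p6), 55 of the 75 symbols had an entry. A C exactly at the annotated start, followed by 4 bases that are each C or T on the gene's strand, stood in 13 of these 55 (23.6%), against 800 of 26970 other symbols (2.97%). With the C allowed up to 3 bases either side, the shares were 41.8% of members and 13.5% of other symbols. Annotated starts can be off by some bases, and a missing match says only that these letters are not at that place. The sequences of 5 members are shown because their probes are described below or because they show the range of the tract, from 5 bases before the start to 15 from it on, with the C and the 4 pyrimidines in capitals.

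Rplp2: tcttcCTTTCgccgccggac
Rpl14: tctctCTTCTcgctgagcgc
Rpl38: tcgttCTTTCcccgttctct
Rps6: cgggcCTCTTtttcgtgacg
Rps10: cgcccCTTCCtttccagcct

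The values rest on bright spots. Of the 181 member probes, 180 were well above background in all 4 channels and were tested, and the remaining one was not well above background in either genotype. Member probes had a median of 16.3 for the mean log2 signal, and 110 of them lay above 16, where only 502 of the 28735 other tested probes lay. No gene spot was saturated. In the 4 channels, 69.3% to 77.4% of gene probes were well above background, and the number of arrays limits the precision. Log2 ratios are of mutant over control, turned by the dye labels, and are given as mean ± SD over the 2 arrays. As a check of the targeted genes, the 3 Fgfr1 probes had means from -0.54 to -0.33, and 1 of them was called lower in mutant RNA (limma adjusted p = 0.028, and 0.0708 with the prior of the test fitted by maximum likelihood, a setting chosen after seeing the data). Both Fgfr2 probes were called higher in mutant RNA, at 0.76 (limma adjusted p = 0.00686, and 0.0441 with that prior) and 0.56 (0.0184, and 0.0527). The floxed exons are not named in the labels, and a probe outside them checks neither genotype nor labels.

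Averaged over the 2 arrays, ratios of ribosomal protein transcripts between mutant and control ureters were small. On single arrays they were wider, from -0.48 to 0.77 on array 1 and from -0.65 to 0.35 on array 2. Of 180 member probes, 1 passed an adjusted p of 0.05 in limma's fit over all 28915 tested probes, and it was higher in the mutant RNA, while none passed as lower. In the same fit 5.09% of all tested probes passed, 2.52% as higher and 2.57% as lower. The members' median log2 ratio was -0.06, with quartiles of -0.13 and 0.02, beside -0.01 over all tested probes. The means of the member probes ran from -0.31 to 0.43, and 154 of 180 were within 0.2 of 0, as were 19595 of all 28915 tested probes. At an unadjusted p below 0.05, 1 member probe was higher and 9 were lower, which is 0.556% and 5% of them, beside 11.3% and 11.3% of all tested probes. A count of called probes is bound to the spread between arrays, and that spread was wider for members, with a median SD of 0.22 against 0.11 over all tested probes.

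That wider spread had a direction. Of the 180 member probes, 114 (63.3%) lay above 0 on array 1 and below 0 on array 2, which is higher in Cy5 than in Cy3 on both arrays, whichever genotype the dye carried. The same was true of 15.8% of all tested probes. The opposite pattern, higher in Cy3 on both arrays, held for 4 member probes (2.22%), beside 18% of all. The members' median was 0.10 on array 1 and -0.24 on array 2, and over all tested probes it was -0.02 and -0.00. Only 9 member probes (5%) lay above 0 on both arrays, beside 31.1% of all tested probes, and 53 (29.4%) lay below 0 on both, beside 35.1% of all.

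**Figure D1:**
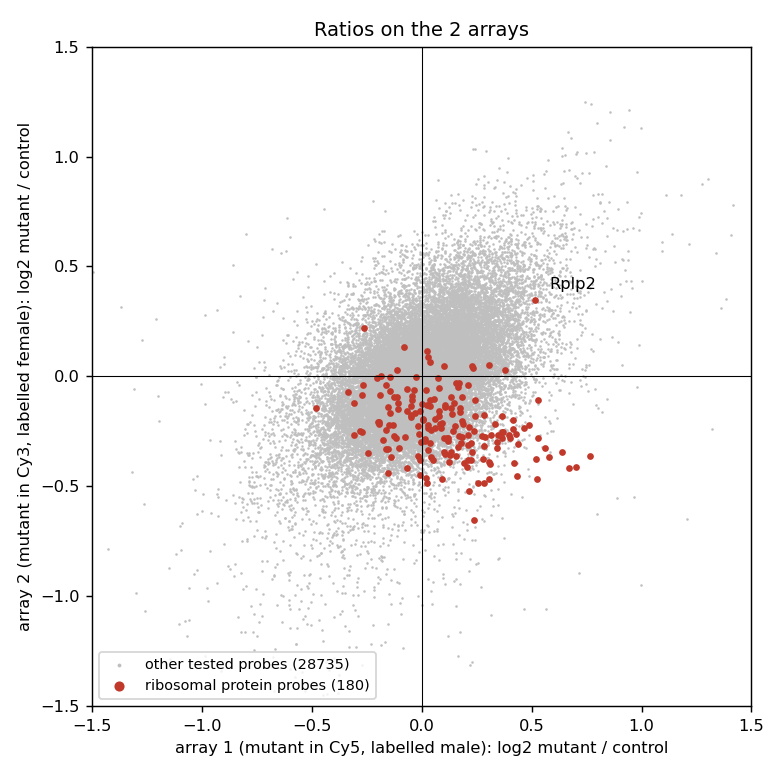
Log2 ratio of mutant over control on array 1 (horizontal, mutant RNA in Cy5) and on array 2 (vertical, mutant RNA in Cy3), for 180 ribosomal protein probes in red and 28735 other tested probes in grey, of which 61 lie outside the axes. Most red points, 114 of 180, sit in the lower right corner, above 0 on array 1 and below 0 on array 2, and the Rplp2 probe sits apart in the upper right.

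Among members the pattern moved with brightness, while other probes showed it more often only in the brightest range. Among members with a mean log2 signal above 16, 75.5% of 110 probes were higher in Cy5 on both arrays, with medians of 0.18 on array 1 and -0.28 on array 2. Other probes in that range showed it for 42.6% of 502, with medians of 0.10 and -0.12. Members between 13 and 16 showed it for 48.2% of 56 probes, beside 12.3% of other probes. In that range 512 of 4168 other probes showed it, and 934 showed the opposite, higher in Cy3 on both arrays. The 14 dimmest members, up to 13, showed it for 28.6%, beside 3719 of 24065 other probes, and all 14 had a mean below 0, with medians of -0.11 on array 1 and -0.15 on array 2. Whether the dye, the sex label or the sample carries the difference between arrays cannot be told apart, and the part of brightness in it was not tested.

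**Figure D2:**
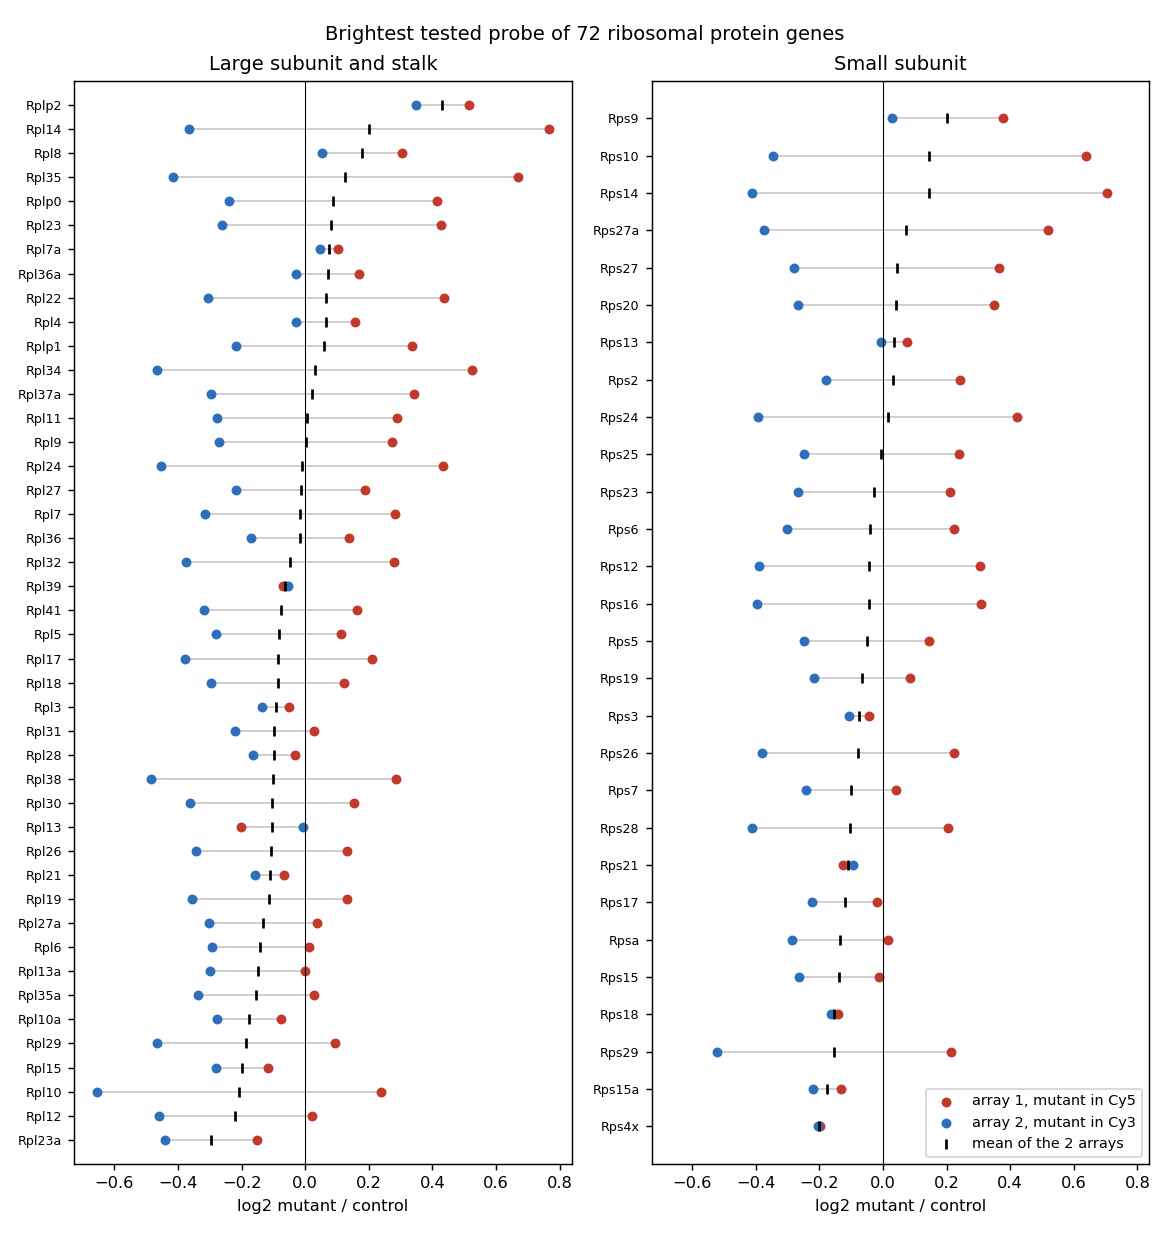
Log2 ratio of mutant over control (horizontal) for the brightest tested probe of 72 ribosomal protein genes, ordered by the mean of the arrays, with array 1 in red, array 2 in blue and the mean as a black tick. For 52 of them the red point is right of 0 and the blue point left of it, 4 genes lie above 0 on both arrays and 16 below 0 on both.

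The stalk of the large subunit is a flexible arm of 1 P0 protein (Rplp0) and pairs of the acidic proteins P1 (Rplp1) and P2 (Rplp2), which draws elongation factors to the ribosome. The C-terminal end of the 3 proteins is nearly shared, and 4 of their 6 probes hold the place where the coding sequence stops. The letters are shown because the called probe belongs to this family and its relatives on the array carry much of the same end. They end with the stop codon, and capitals mark bases that differ from the Rplp2 probe. The Rplp2 probe lies at chr7:148637182-148637241 (mm9, plus strand), the Rplp0 probes at chr5:116013404-116013463 and chr5:116013397-116013456 (plus strand), and the Rplp1 probe, which holds only the last 15 bases of this stretch, at chr9:61761086-61761145 (minus strand).

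Rplp2: atgggatttggcttgtttgattaa
Rplp0, first probe: atgggatttggTCtCtttgaCtaa
Rplp0, second probe: atgggattCggTCtCttCgaCtaa
Rplp1: ggTCtTtttgaCtaa

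The Rplp0 stretches differ from that of Rplp2 at 4 and 6 of 24 bases, and the Rplp1 stretch at 4 of 15. Rplp2 had normalised log2 signals of 17.25 and 17.43 in mutant RNA (arrays 1 and 2), against 16.74 and 17.08 in control RNA. Both mutant values were above both control values. The share of all tested probes that separate in this way was not counted, which also limits such statements below. The log2 ratio of Rplp2 was 0.43 ± 0.12 (SD, n = 2), a 1.35-fold difference, with 0.51 on array 1 and 0.35 on array 2. The limma adjusted p was 0.0497. The call stands at the threshold. With the prior of the moderated test estimated by maximum likelihood in place of limma's own estimate, the adjusted p was 0.0876, no member probe was called and 1.23% of all tested probes were (0.571% as higher and 0.664% as lower).

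No other stalk probe passed the test. The Rplp0 probes had means of 0.05, 0.06 and 0.09 and the Rplp1 probes 0.06 and 0.13, so that all 6 stalk probes had a mean above 0. Of these, 4 of 6 were above 0 on array 1 and below 0 on array 2. The brightest Rplp0 probe had log2 signals of 17.37 and 17.02 in mutant RNA and 16.95 and 17.26 in control RNA, and the groups overlap.

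Among the other large subunit genes, 107 probes of 42 genes had a median of -0.08. No probe passed limma's test, beside 5.09% of all tested probes. At an unadjusted p below 0.05 none was higher and 8 of the 107 were lower, beside 11.3% and 11.3% of all tested probes. The lowest member of all was a probe of Rpl29, a surface protein of the large subunit, with log2 signals of 15.79 and 15.99 in mutant RNA, against 16.27 and 16.13 in control RNA. Its mean was -0.31 ± 0.24 (SD, n = 2; limma adjusted p = 0.156). Mutant values were below control values on both arrays and the groups did not overlap. The probe was picked as the lowest, and the share of all tested probes without overlap was not counted. The other Rpl29 probe had 0.09 on array 1 and -0.47 on array 2.

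Rpl23a, which lines the exit of the tunnel for the nascent chain, was measured by 2 probes that do not overlap. One had log2 signals of 15.70 and 15.59 in mutant RNA, against 15.95 and 15.95 in control RNA, and the other 16.45 and 16.19 in mutant RNA, against 16.60 and 16.63 in control RNA. Their means were nearly equal, -0.30 ± 0.07 (SD, n = 2; limma adjusted p = 0.138) and -0.30 ± 0.20 (SD, n = 2; limma adjusted p = 0.163). On both probes each mutant value was below each control value.

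Rpl12, a protein at the base of the stalk, had log2 signals of 15.96 and 15.94 in mutant RNA and 16.27 and 16.21 in control RNA on its lower probe, with a mean of -0.29 ± 0.03 (SD, n = 2; limma adjusted p = 0.147). On that probe the groups did not overlap. The brighter Rpl12 probe had ratios of 0.02 and -0.46. Rpl17 had 7 tested probes, the most of any member, and all 7 means were below 0, from -0.26 to -0.02. Rpl13a, known in other settings as a regulator of the translation of inflammatory transcripts, had means of -0.25, -0.23 and -0.15 on its 3 probes. None of these passed the test.

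At the upper end of the large subunit, one probe of Rpl9 had 0.21 ± 0.45 and one of Rpl14 0.20 ± 0.80 (SD, n = 2 each), with Rpl14 at 0.77 on array 1 and -0.36 on array 2. The groups overlapped for both. Both Rpl8 probes were above 0 on both arrays, with means of 0.18 and 0.06. Rpl8 contacts the catalytic centre. The higher probe had 16.68 and 16.58 in mutant RNA, against 16.37 and 16.52 in control RNA, without overlap. Its limma adjusted p was 0.376.

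**Figure D3:**
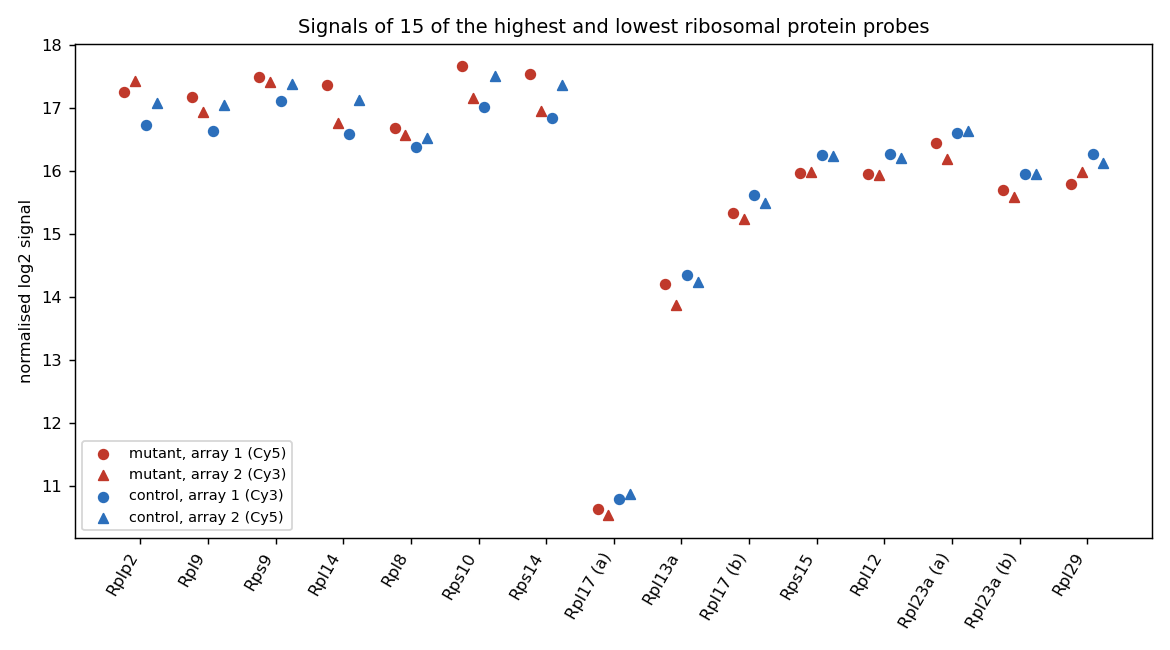
Normalised log2 signal (vertical) in mutant RNA (red) and control RNA (blue) on array 1 (circles) and array 2 (triangles), for 15 of the ribosomal protein probes at the upper and lower end by mean ratio, to be read within a probe and not between probes. For Rplp2 both red points lie above both blue points, while for Rpl14, Rps10 and Rps14 the red circle and the blue triangle, both Cy5, are the upper pair.

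The genes that link ribosome assembly to p53 did not pass the test. Rpl5 and Rpl11 bind Mdm2 when assembly fails, and their brightest probes had means of -0.08 ± 0.28 and 0.01 ± 0.40 (SD, n = 2 each). Rpl26, which binds the p53 messenger RNA, had -0.11 ± 0.34 on its brightest probe. Rpl22, mutated in some leukaemias, had 0.06 ± 0.53 on one probe and -0.09 ± 0.13 on the other.

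Rpl38, which in mouse embryos is needed for the translation of a subset of Hox transcripts, had 0.28 and -0.49 on the 2 arrays on its brighter probe, a mean of -0.10. Rpl10, an X-linked late assembly protein, had a mean of -0.21 ± 0.63 (SD, n = 2) on its brightest probe. That probe had 0.24 on array 1 and -0.65 on array 2, the lowest value of any member on that array. The other Rpl10 probes had means of -0.01 and -0.05. Rpl3, a core protein near the catalytic centre, had -0.09 ± 0.06.

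The small subunit had 67 probes of 30 genes with a median of -0.05. None passed limma's test, beside 5.09% of all tested probes. At an unadjusted p below 0.05 none was higher and 1 of the 67 was lower, beside 11.3% and 11.3% of all tested probes. Its lowest probe was one of Rps15, an assembly protein of the small subunit, with log2 signals of 15.97 and 15.99 in mutant RNA, against 16.25 and 16.23 in control RNA. The mean was -0.26 ± 0.02 (SD, n = 2; limma adjusted p = 0.175), the groups did not overlap, and the other Rps15 probe had -0.14 ± 0.18. Its highest probe was that of Rps9, at 17.49 and 17.41 in mutant RNA, against 17.11 and 17.39 in control RNA. The mean was 0.20 ± 0.25 (SD, n = 2; limma adjusted p = 0.343), and the groups did not overlap.

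Rps10 and Rps14 showed the widest splits between arrays in the small subunit. Rps10 had 17.66 and 17.17 in mutant RNA and 17.02 and 17.51 in control RNA, a mean of 0.15 ± 0.69 (SD, n = 2). Rps14, the gene lost in one form of myelodysplastic syndrome, had 0.70 on array 1 and -0.41 on array 2. The higher value was the Cy5 channel each time.

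Of the other landmarks, Rps6, the S6 kinase substrate, had means of -0.04, -0.14 and -0.21 on its 3 probes, and all 3 Rps3 probes lay below 0 on both arrays, from -0.11 to -0.08. Rps19, most often mutated in Diamond-Blackfan anaemia, had -0.07 ± 0.21 (SD, n = 2). Rpsa, also known as the laminin receptor, had means from -0.13 to 0.01 on 4 probes. Rps24 and Rps27a, which is made as a fusion with ubiquitin, each had probes on both sides of 0, from -0.20 to 0.06 and from -0.15 to 0.07.

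Probes of the same gene served as a measure of how far a small difference can be read. Among 59 genes with more than 1 tested probe, 17 had probe means on opposite sides of 0. Of all 75 genes, 44 had every tested probe below 0 and 14 every one above. The same counts were not taken over all genes on the array. By probe, 126 of 180 members had a mean below 0, beside 15323 of all 28915 tested probes. Those with probes on opposite sides included Rpl6, Rpl7, Rpl7a, Rpl11, Rpl13, Rpl14, Rpl22, Rpl23, Rpl34, Rpl36a, Rps2, Rps16, Rps24, Rps27a and Rpsa. Pairs were counted as overlapping if they aligned without gaps over at least 20 bases, with a share of mismatches up to 0.15. In 31 such pairs the means differed by a median of 0.02 and at most 0.09. In the other 145 pairs they differed by a median of 0.08 and at most 0.36. Some of these still share positions in the genome, as 2 of the Rpl17 probes do. On single arrays the differences were wider, with medians of 0.05 on array 1 and 0.04 on array 2 for overlapping pairs, and of 0.16 and 0.10 for the others. Probes of 1 gene share their RNA and arrays and are not replicates.

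Of the 31 overlapping pairs, 27 differ from each other in at least 1 base. Pairs from Rpl11 and Rps29 are shown because a few bases set such probes apart while their mean ratios were close. Capitals mark the differing bases, which number 2 of 30 in each pair. The Rpl11 probes lie at chr4:135605902-135606224 and chr4:135605879-135606201 (mm9, minus strand, across an intron), and the Rps29 probes at chr2:172335021-172335079 and chr2:172335003-172335062 (mm9, minus strand).

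Rpl11, first probe: gcagaagtaCgatggGatcatccttcctgg
Rpl11, second probe: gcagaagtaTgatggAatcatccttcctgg
Rps29, first probe: ggcagtacGcgaaggacaTaggcttcatta
Rps29, second probe: ggcagtacAcgaaggacaCaggcttcatta

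The Rpl11 pair had means of 0.01 and 0.00, and differed by 0.11 on each array. The Rps29 pair had means of -0.15 and -0.10. The Rps29 coordinates are on a chromosome other than that of the gene in RefSeq's table. This held for 10 member probes of 5 genes, Rpl13, Rpl36, Rps27, Rps29 and Rps4x. Ribosomal protein genes have many processed pseudogenes, so the transcripts behind such probes, and behind any member probe with a near-identical copy, are uncertain. No probe of the 10 passed the test, and their means ran from -0.20 to 0.13.

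Proteins of the ribosome whose names fall outside the rule were read beside the members. The median over 15 tested probes of 11 such genes was -0.14, with 0.01 on array 1 and -0.18 on array 2. Of the 15 probes 1 passed, beside 5.09% of all tested probes, and it was lower in the mutant RNA. The probe was that of Rpl39l, a paralogue of Rpl39 known for its expression in the testis, with log2 signals of 6.74 and 7.24 in mutant RNA, against 7.23 and 7.89 in control RNA. Its mean was -0.57 ± 0.12 (SD, n = 2; limma adjusted p = 0.0182), and 0.0544 with the maximum-likelihood prior. These signals are dim: over all tested probes the lowest mean log2 signal was 6.59 and the median 9.83. A probe this dim can enter the test through 1 genotype alone, which limits what its call can say. The Rpl39 probes had means of -0.06, -0.10 and -0.19 and did not pass. Rpl10l had 0.29 ± 0.04 on its tested probe, Rpl7l1 -0.16, Rpl22l1 -0.08, Rps27l 0.03 and Rpl36al -0.08. Fau, made as a fusion with a ubiquitin-like protein, had means of -0.15 and -0.14, Gnb2l1 (Rack1) had 0.12 ± 0.50 (SD, n = 2), and the probes of Rpl3l and the other Rpl10l probe were not tested because they were not well above background.

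Genes that make or use ribosomes were read in short lists, so their counts of called probes are small. Of all tested probes, 2.52% were called higher and 2.57% lower. Of 67 probes of 40 translation factor genes, 1 passed as higher and none as lower, with a median of -0.02. The probe was one of Eef1g, a subunit of elongation factor 1, with 16.33 and 16.35 in mutant RNA, against 15.90 and 15.92 in control RNA. Its mean was 0.43 ± 0.00 (SD, n = 2; limma adjusted p = 0.0454), and 0.0803 with the maximum-likelihood prior. The other Eef1g probes had 0.19 and 0.06. Of 31 probes of 20 regulators of ribosomal protein synthesis, 1 passed as higher, that of Larp1, which binds the TOP tract, at 14.53 and 15.07 in mutant RNA, against 14.15 and 14.46 in control RNA. Its mean was 0.49 ± 0.16 (SD, n = 2; limma adjusted p = 0.0342), and 0.0757 with the maximum-likelihood prior. The dimmer Larp1 probe had -0.02 ± 0.08, so the probes of this gene disagree.

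No probe passed among 65 probes of 43 ribosome assembly genes, beside 5.09% of all tested probes. The assembly probes had a median of -0.09 (0 called in limma's fit). At an unadjusted p below 0.05, 6 of them were higher and 9 lower, beside 11.3% and 11.3% of all tested probes. The smallest p belonged to Tcof1, which acts in ribosomal RNA transcription, at 0.41 (limma adjusted p = 0.0558), followed by the export adaptor Nmd3 at -0.40 and the nucleolar protein Gnl3 at -0.36. No probe passed among 109 probes of 77 mitochondrial ribosomal protein genes either, with a median of -0.09 (0 called in limma's fit, 1 higher and 7 lower at an unadjusted p below 0.05). Their lowest means were those of Mrps17, -0.37 and -0.34, and Mrpl22, -0.32 on one probe and -0.07 on the other. Target genes of p53 had a median of 0.14 over 19 probes of 15 genes. None passed, and at an unadjusted p below 0.05, which 11.3% of all tested probes met as higher and 11.3% as lower, 5 were higher and none lower. The smallest p belonged to Zmat3 at 0.38, Aen at 0.29 and 0.28, and Sesn2 at 0.26.

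In a bulk tissue, fewer cells of a type and less RNA per cell cannot be told apart. Probes of several cell type markers were called in limma's fit. A dim probe can enter the test through 1 genotype alone, which limits what such calls can say. The median of the mean log2 signal was 7.72 for kidney tubule, 8.25 for skeletal muscle and 8.79 for endothelial probes, beside 9.83 over all tested probes. Of 9 tested adipocyte marker probes 8 fell, with medians of -1.15 on array 1 and -2.83 on array 2, beside 2.57% of all tested probes called lower. Of other markers, 7 of 10 endothelial, 4 of 9 neuron and Schwann, 5 of 12 macrophage and 1 of 6 skeletal muscle probes fell. In the neuron and Schwann list, 2 of the 9 probes had a mean above 0, up to 0.37. Of 12 urothelial marker probes 4 rose, of 5 kidney tubule probes 3 and of 9 smooth muscle probes 1, beside 2.52% of all tested probes called higher. These lists were not uniform. Means below 0 were found for 4 of the 12 urothelial probes, down to -0.46, for 4 of the 9 smooth muscle probes, down to -0.31, and for 1 of the 5 kidney tubule probes. The smooth muscle median was 0.00. Of 8 fibroblast probes 1 rose and 2 fell, and none of 3 erythroid probes passed limma's test (none higher and 1 lower at an unadjusted p below 0.05). With the maximum-likelihood prior, 4 adipocyte, 3 endothelial, 4 neuron and Schwann, 2 macrophage, 1 skeletal muscle and 1 fibroblast probes were called lower, and 3 urothelial, 1 kidney tubule and no smooth muscle probes higher. The part of these differences in the ribosomal protein values was not tested.

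**Figure D4:**
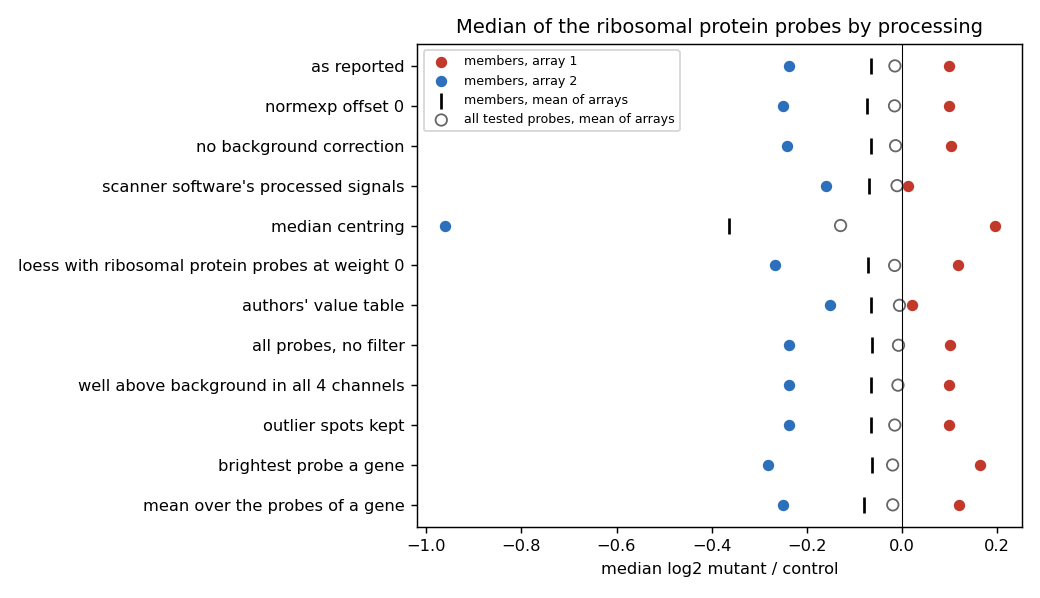
Median log2 ratio of mutant over control (horizontal) over the ribosomal protein probes under each processing (rows), for array 1 in red, array 2 in blue and the mean of the arrays as a black tick, with the median of all tested probes as an open circle. The members' median lies between -0.08 and -0.06 in every row but median centring, where it is -0.36 beside -0.13 for all tested probes, and array 1 lies right of array 2 in every row.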

How the data were processed

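Per the file headers, the deposited scanner files hold intensity values (mean spot signal and median local background), and the submitters' processing notes name Agilent Feature Extraction 10.7.3.1. Processed intensity values and the authors' deposited table of signed fold-change scores, a score per probe whose scale and averaging are not given in the sources used here, served as alternatives. The deposited log10 ratios, per the file headers, are red over green. The file headers give mm9 as the build of the probe coordinates.

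Signals were corrected by normexp (offset 50) and normalised by loess within each array with limma 3.58.1 in R 4.3.3. Control, filler and outlier spots (3.17% and 3.65%) were left out, and the 4 spots of a probe were averaged. Testing required that, in 1 genotype or both, over 0.5 of a probe's spots stood well above background on each array. Ratios were tested against 0 with lmFit and eBayes (two-sided, Benjamini-Hochberg over all 28915 tested probes, threshold 0.05), with 1 residual and 9.35 prior degrees of freedom.

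The test was run on simulated data with known changes. With 1 residual degree of freedom, limma's estimate of the prior often came out too high, and more calls were false than the threshold aims at. A prior fitted by maximum likelihood (5.89 degrees of freedom on these arrays) was added after seeing the data. It came closer to the aimed share there. Whether either prior does so on these arrays, with their shared split between dyes, was not tested. Adjusted p-values near 0.05 from the first fit may be too small.

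Members and lists were chosen with earlier results of these data known. Named probes are the called ones, the 8 highest and 8 lowest members, landmark genes, genes with probes on opposite sides of 0, members not tested, and of each other list the called genes or those with the smallest p. Some genes that this rule names are not reported here. Channel signals were also scaled between arrays (Aquantile). Alternatives covered background, normalisation, filter, probe choice, variance model and single arrays. RefSeq (GRCm38.p6) gave promoter sequences and chromosomes.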

Additional observations from a re-analysis of the deposited data

Results flagged for a closer look

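The median log2 ratio over the 180 ribosomal protein probes was 0.10 on the array labelled male and -0.24 on the array labelled female. It was singled out because the arrays moved in opposite directions. The difference was not tested, and sex label, replicate and dye orientation cannot be told apart.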

How the results depend on the processing

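With 2 arrays and 1 residual degree of freedom, depth is not the limit: member spots are bright, but a probe's own spread rests on a pair of values. The test gives that spread 1 degree of freedom, and a prior spread estimated over all tested probes 9.35. Members had a median SD of 0.22, against 0.11 over all tested probes. Their p-values therefore say little of the members' own spread. The Rplp2 call was kept with all 4 channels required above background (adjusted p = 0.0429). Separate channels with array as a replicate block are the same test as the one reported (0.0497) and say nothing of stability. It was lost, with 0 member probes called, under offset 0 (0.0635), no background correction (0.0548), processed signals (0.146), median centring (0.07 log2, 0.891), loess with members at weight 0 (0.0624), the authors' deposited table (0.0955), no filter (0.0546), outlier spots kept (0.0548), trend and robust (0.131), no replicate block (0.405), the brightest probe (0.0672) or mean (0.051) per gene, and the maximum-likelihood prior (0.0876, added after seeing the data). No setting called a member lower. Calls among all probes numbered 1471 as reported, 357 with the maximum-likelihood prior, 81 with processed signals, 875 in the authors' table, 4 without the block, 817 and 972 per gene, and 0 with median centring or with trend and robust.

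Median centring moved the members' median to -0.36, and probes above 0 on both arrays to 0. The members' median under it was 0.20 on array 1 and -0.96 on array 2. Per gene, 4 (brightest) or 3 (mean) genes were above 0 on both arrays, and 16 or 20 below. With the processing as reported, the members' median was -0.24 on array 2 alone and 0.10 on array 1 alone. Under median centring, list medians were -0.37 (ribosomal proteins outside the rule), -0.29 (translation factors), -0.28 (assembly), -0.12 (regulators), -0.056 (p53 targets) and -0.30 (mitochondrial), each with 0 called. On single arrays they ran from -0.18 to 0.0056 outside the rule and from -0.058 to -0.0025 for translation factors. Translation factors had 0 called also with processed signals, loess with members at weight 0 and the maximum-likelihood prior, regulators with the first and last of these, and proteins outside the rule with the last. Over all alternatives with a test, the call was kept in 4 of 15 for Eef1g, 7 of 15 for Larp1 and 10 of 14 for Rpl39l. These counts include separate channels with array as a replicate block, which repeats the reported test, so that kept call was fixed in advance.

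Of 457 values of 31 named member probes under settings with a test, 427 kept direction and call, 13 lost the call and 17 changed sign, none of them called. The 427 include the values under separate channels with array as a replicate block, which repeat the reported test. Settings that change only the filter or the variance model reuse the same ratios and could not change a sign. Under median centring the signs of Rpl9 (-0.13), Rps9 (-0.15), Rpl14 (-0.13), Rpl8 (-0.15), Rps10 (-0.20), Rps14 (-0.20), Rpl11 (-0.33), Rpl22 (-0.26), Rplp0 (-0.25), Rplp1 (-0.29), Rps24 (-0.32) and Rps27a (-0.27) turned. Rpl11 also turned with offset 0 (-0.0039) and with members at weight 0 (-0.0026), and Rpl22 (-0.014), Rps24 (-0.018) and Rps27a (-0.0093) with the mean over probes. The cause was not tested.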
